A study of Homo sapiens with 8 samples.

Results

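The genes described here drive or restrain the passage of a cell from G1 into S phase: the D-type cyclins CCND2 and CCND3, their kinases CDK4 and CDK6, the inhibitors CDKN1B, CDKN2C and CDKN2D, the pocket protein RB1 and the transcription factor E2F1. These 9 genes were taken by name from 15380 genes with a read, each represented by the 3′ UTR segment with the most reads, and 8 of the 9 had enough reads to be tested. The cells were THP-1, a single established human line grown from acute monocytic leukaemia. Cells were pulsed with 30 uM 4-thiouridine (4sU, a uridine analogue that living cells build into new RNA) for 12 h, with fresh medium every 3 h, and were then washed and kept in medium with 3 mM uridine. They were harvested at 0 h, 20 min, 40 min, 1 h, 2 h, 8 h and 12 h of this chase, 1 library each, and 1 further library came from cells that never received 4sU. Nothing in the labels says whether that control was washed or given uridine, and no condition had a replicate.

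In G1, growth signals raise D-type cyclins, which bind CDK4 or CDK6 and begin to phosphorylate RB1. Phosphorylated RB1 releases E2F1 and its relatives, and these switch on the genes of DNA replication. CDKN2C and CDKN2D belong to the INK4 inhibitors, which bind CDK4 and CDK6 themselves, whereas CDKN1B, also called p27, chiefly blocks the cyclin E and cyclin A kinases further on. In many human leukaemias CDK6 is the prominent partner of the D-type cyclins, and the KMT2A fusions found in lines such as THP-1 are known to act on its gene.

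Iodoacetamide treatment lets incorporated 4sU read as C in place of T, so a read with such changes came from RNA made while 4sU was present. It is called a labelled read here, and the labelled share is the percentage of a gene's reads that were labelled. An unlabelled read at 0 h cannot be taken as older RNA, since RNA made during the pulse can also give reads without such changes. Reads of all genes summed to between 8301033 and 11224018 in the chase libraries and to 2916043 without 4sU. Over all genes 30.6% of reads were labelled at 0 h and 5.53% after 12 h, against 0.0121% without 4sU. All 9 monocytic markers examined had at least 50 reads. The T cell marker CD3E was not among the 15380 genes kept, which are those with a matched transcript and a read. No member had a labelled read in cells without 4sU, which for the 8 tested genes allows a share between 0.153% (CCND3, 1964 reads) and 4.05% (CDKN2D, 74 reads).

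Short stretches of the 3′ UTR, the part of the mRNA after the stop codon, are shown for CDKN1B and E2F1 because these genes had the shortest and the longest half-life of the label. The annotated CDKN1B 3′ UTR of 1344 bases held 2 matches to the Pumilio motif TGTANATA and 2 matches to the seed of miR-221-3p, a microRNA known to repress CDKN1B. Capitals mark the motif or the seed match, and the positions are on GRCh38, plus strand, with sequence from GENCODE 29.
CDKN1B, miR-221-3p seed match, chr12:12721218-12721245: aaagcgttggATGTAGCattatgcaatt
CDKN1B, Pumilio motif, chr12:12721270-12721297: gtactacctgTGTATATAgtttttacct
CDKN1B, miR-221-3p seed match, chr12:12721291-12721318: tttaccttttATGTAGCacataaacttt
CDKN1B, Pumilio motif, chr12:12722086-12722113: agtgtacctgTGTACATAactctgtaaa
miR-221-3p (RefSeq, GRCh38.p14), with its seed of bases 2 to 8 in capitals: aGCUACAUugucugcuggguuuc

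AU-rich elements, which recruit proteins that shorten mRNA life in many cytokine and growth genes, were searched as ATTTA and as the longer TTATTTATT, which contains an ATTTA. E2F1 held 2 copies of the longer form in its 3′ UTR of 1049 bases and CDK6 held 1 in 10219 bases. These lie on the minus strand of GRCh38.
E2F1, AU-rich nonamer, chr20:33676155-33676182: aatggagcgTTATTTATTtatcgaggcc
E2F1, AU-rich nonamer, chr20:33675997-33676024: ctgggtgatTTATTTATTgggaaagtga
CDK6, AU-rich nonamer, chr7:92607652-92607679: tcatgtatgTTATTTATTtctgaatcac

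The label of all 8 members tested declined over the chase, against a background of 95.3% of 9402 genes that declined and 0.0213% that rose (edgeR quasi-likelihood fit of labelled reads against hours, offset by the gene's own total, Benjamini-Hochberg adjusted p under 0.05 over all genes). Adjusted p ran from 1.48e-13 for CDKN2C to 3.84e-09 for E2F1. With nearly every gene called, the calls themselves say little about these genes, and the shares over time are given for each below. Each p-value tests whether the fitted slope over hours differs from none, judged against how far the 7 single libraries depart from that fit. It does not measure the spread between replicate cultures of a condition.

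**Figure D1:**
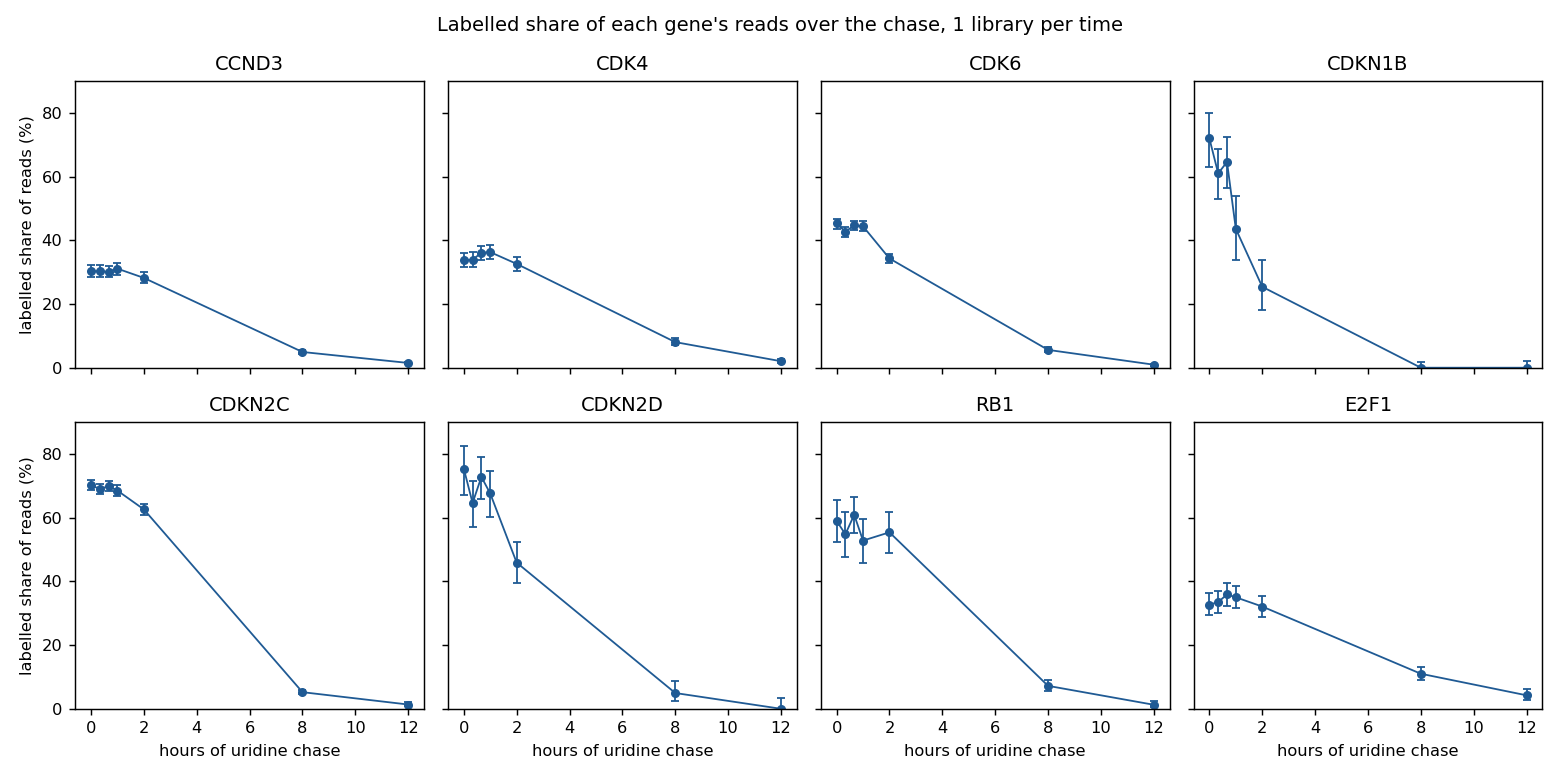
Labelled share of each gene's reads (vertical axis, %) against hours of uridine chase (horizontal axis). Points are single libraries and bars are 95% exact binomial intervals for counting error; CDKN1B was at 43.6% at 1 h, while CDK4, CCND3 and E2F1 were at 28.2% to 32.6% after 2 h, close to their share at 0 h.

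Among the inhibitors, CDKN1B lost its label first. The labelled share of CDKN1B was 72.0% at 0 h, 61.0% after 20 min, 64.6% after 40 min, 43.6% after 1 h and 25.4% at 2 h. No labelled read was left among 221 reads at 8 h, which allows a share of up to 1.36%, or among 173 at 12 h (up to 1.73%). The 1 h value (95% exact interval 33.7% to 53.8%) lay below the intervals at 0 h and 40 min and overlapped that at 20 min (53.0% to 68.6%), and the 2 h value lay below all 3. Relative to the pooled share of the 0 to 40 min libraries (their labelled reads summed over their total reads summed), 66.7% was kept at 1 h and 38.9% after 2 h, against 96.7% and 83.3% in the median gene tested. A half-life of 1.26 ± 0.19 h (SE, 95% interval 0.862 to 1.85 h) was fitted for CDKN1B from a binomial model with exponential loss. Only 0.7% of 8831 genes with a resolved half-life had a shorter one.

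CDKN2C followed a different course. CDKN2C was labelled in 70.2% of reads at 0 h, 69.0% after 20 min, 69.9% after 40 min, 68.5% after 1 h and 62.6% at 2 h. At 8 h the share was 5.22%, and at 12 h it was 1.34%. It was thus nearly level through the first hour and low in both late libraries. The share kept at 1 h was 98.4% of the early share, against 96.7% in the median gene tested. An exponential described the course poorly: the variance about the fit was 131 times the binomial variance, against 3.74 times in the median gene tested. This ratio ran from 2.41 for CDKN1B to 37.1 for CDK6 in the other members, with 22.7 for CCND3 and 19.8 for CDK4. CDKN2C averaged 3089 reads per chase library, and the part of read depth in the ratio was not tested. The half-life of CDKN2C, 2.89 ± 0.65 h, has a wide interval (1.62 to 5.14 h).

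CDKN2D, a second INK4 inhibitor, had the highest share at 0 h of the 8 genes, within the interval of CDKN1B. Its labelled share was 75.4% at 0 h, 64.6% after 20 min, 72.8% after 40 min, 67.6% after 1 h, 45.9% after 2 h and 4.95% after 8 h, with no labelled read among 105 at 12 h (up to 2.86%). The share was lower at 2 h, where the interval of 39.5% to 52.4% lay below all earlier intervals. Labelled CDKN2D reads scaled to the library were 11.6 CPM at 0 h, 12.8 CPM at 1 h and 12.4 CPM at 2 h, and its unlabelled reads were 3.79, 6.11 and 14.6 CPM at those times (CPM is the gene's share of the library's gene reads, times 1e+06). The lower share at 2 h thus went with more unlabelled reads, while 95.8% of the early labelled CPM was still there. Its fitted half-life was 2.28 ± 0.36 h (1.52 to 3.42 h). A shorter overlapping segment of CDKN2D, from another transcript, had 32 labelled reads of 56 (57.1%) at 0 h, and 28 of 91 (30.8%) at 2 h.

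Of the kinases, CDK6 lost label earlier than CDK4 by these values, though the fitted intervals overlapped and the difference was not tested. CDK6 reads were labelled at 45.3% at 0 h, 42.7% after 20 min, 44.7% after 40 min, 44.4% after 1 h, 34.3% after 2 h, 5.6% after 8 h and 0.952% at 12 h. CDK4 had 33.7% at 0 h, 33.9% after 20 min, 36.1% after 40 min, 36.3% after 1 h, 32.6% after 2 h, 8.04% after 8 h and 2.04% at 12 h. CDK6 had therefore kept 77.4% of its early share at 2 h and 12.6% after 8 h, and CDK4 94.2% and 23.2%. Half-lives were 2.64 ± 0.35 h for CDK6 (1.89 to 3.69 h) and 3.48 ± 0.52 h for CDK4 (2.37 to 5.12 h), on either side of the median of 2.72 h over all resolved genes. All 798 bases of the annotated CDK4 3′ UTR are covered by exons of TSPAN31 on the opposite strand. CDK4 had 14113 reads in all libraries and TSPAN31 2458 in its own segment. The sources used here do not say whether strand was used in counting, so a part of the CDK4 reads could belong to TSPAN31.

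CCND3 gave enough reads to be tested and CCND2 did not. The labelled share of CCND3 was 30.3% at 0 h and at 20 min, 30.1% after 40 min, 31.1% after 1 h, 28.2% after 2 h, 4.94% after 8 h and 1.5% at 12 h. Its share was level through the first hour, and the half-life was 2.94 ± 0.35 h (2.2 to 4.0 h). CCND2 had 25 reads in all 8 libraries, 2 of them labelled, and between 0 and 0.89 CPM in any chase library, against 0.343 CPM without 4sU. At that depth neither its decay nor its level could be described. CCND1, the remaining D-type cyclin, lies outside the rule for naming genes and was added after its values were seen. It had 1901 reads and a half-life of 2.25 ± 0.46 h.

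RB1 and E2F1 differed in their share at the start. RB1 was labelled in 59.0% of reads at 0 h, 54.8% after 20 min, 60.9% after 40 min, 52.8% after 1 h, 55.4% after 2 h, 7.2% after 8 h and 1.26% at 12 h. E2F1 had 32.7% at 0 h, 33.5% after 20 min, 35.9% after 40 min, 35.0% after 1 h, 32.1% after 2 h, 11.0% after 8 h and 4.23% at 12 h. E2F1 thus kept the largest part of its early share of the 8 genes at both late times: 32.4% at 8 h and 12.4% after 12 h, against 14.1% and 3.14% in the median gene tested. By labelled CPM, RB1 had kept more than E2F1 at 8 h (37.2% and 34.1%) and less at 12 h (6.96% and 11.5%). The E2F1 half-life of 4.49 ± 0.60 h (3.18 to 6.33 h) was longer than that of 79.7% of resolved genes. The half-life of RB1 was 2.54 ± 0.35 h (1.79 to 3.61 h) by share.

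In order of fitted half-life, the genes ran CDKN1B, CDKN2D, RB1, CDK6, CDKN2C, CCND3, CDK4 and E2F1. Each overlapped its neighbour within the 95% interval, and of 28 pairs 4 did not overlap: CDKN1B against CDK6, CCND3, CDK4 and E2F1. No test between genes was run. The 8 half-lives had a median of 2.76 h, and the middle 80% of resolved genes lay between 1.81 and 6.63 h. With the 0 to 2 h libraries alone the decline was called for 4 members, namely CDK6 (adjusted p = 8.76e-05), CDKN1B (8.02e-06), CDKN2C (0.0314) and CDKN2D (0.00296), by the same edgeR test. Over all genes 2998 were called as declining in that window, against 8962 of 9402 with all 7 chase libraries. Whether the members differ from other genes there was not tested. The other members, CDK4, CCND3, RB1 and E2F1, gave adjusted p of 0.434 to 0.849 there, and their half-lives over that window came to between 21.3 h (CCND3) and 48.0 h (E2F1), around or past the 24 h above which a half-life was treated as not resolved.

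**Figure D2:**
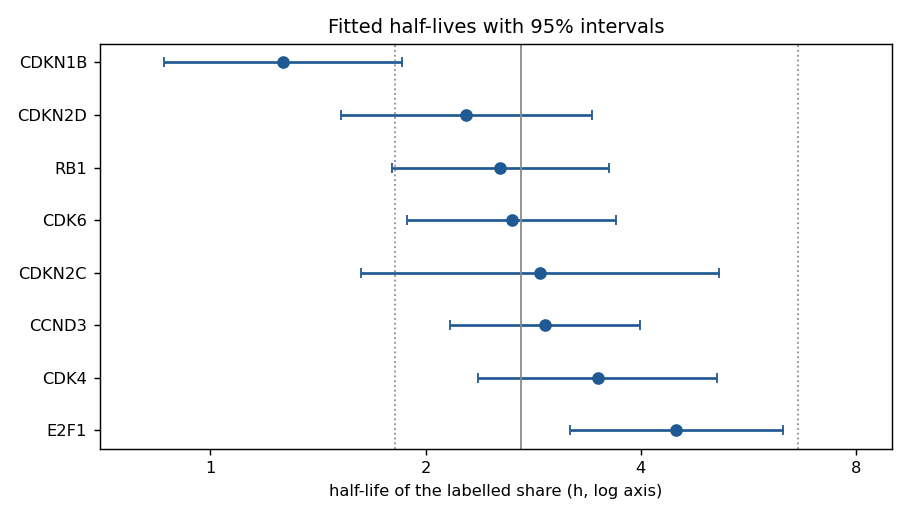
Fitted half-life of the labelled share (horizontal axis, hours, log axis) for each gene, with 95% intervals from the fit. The solid line is the median of all resolved genes (2.72 h) and the dotted lines their lowest and highest 10% (1.81 and 6.63 h); the CDKN1B point lies left of the lower dotted line and all others lie between the dotted lines.

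The letters of the 3′ ends were set beside these values as a description. ATTTA occurred 7 times in the 3′ UTR of CDKN1B (5.21 per kb), 6 times in that of E2F1 (5.72), 12 times in that of RB1 (6.60) and not at all in that of CDK4, against a median of 1.93 per kb in genes with a 3′ UTR of at least 500 bases. Within the last 500 bases, the same window in 6993 genes, 64.2% of genes had an ATTTA, 3.06% the nonamer TTATTTATT, 15.2% the Pumilio motif and 2.75% a miR-221-3p seed match. E2F1 had both of its nonamers there and CDKN1B 1 of its Pumilio motifs, but neither of the miR-221-3p matches of CDKN1B lay there. CDK6 and CCND2 also held 1 miR-221-3p match each in the whole 3′ UTR. Of the other seeds searched (let-7a-5p, miR-16-5p, miR-29a-3p and miR-34a-5p), CDKN1B held 1 match, to miR-34a-5p, and E2F1 held 1, to miR-29a-3p. CDK6 held 2 matches each to miR-16-5p, miR-29a-3p and miR-34a-5p, and CCND2 held 1 to miR-16-5p and 2 to miR-29a-3p. CCND3 held 1 to miR-16-5p within the last 500 bases, where 8.11% of genes had one. AU-rich letters were thus found in the gene with the longest half-life as well as in the gene with the shortest. All motifs were searched on the transcript strand only, and a match says nothing of whether a protein or microRNA was bound. The share of T in the last 250 bases, which bears on how many sites a read offers for 4sU, was 44.0% for RB1, 39.2% for CDKN2C, 37.6% for CDKN1B, 36.4% for CDK6, 34.0% for CDKN2D, 25.6% for E2F1, 23.6% for CCND3 and 20.4% for CDK4, with a median of 31.6% over genes tested. The 3 genes with the lowest T share were also those with the lowest labelled share at 0 h, and the part of T content in that order was not tested.

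Total reads showed which genes changed in level during the chase. RB1 and CCND3 rose and CDKN2C fell, against 27.4% of 10643 genes called as rising and 23.9% as falling (edgeR on total counts with TMM scaling). The remaining tested members, CDK4, CDK6, CDKN1B, CDKN2D and E2F1, had adjusted p of 0.0833 to 0.868. Over all genes the split of 2919 rising and 2542 falling became 3822 and 1797 without TMM factors, where the trend of the median gene was 0.18 rather than 0.02 on the log2 scale over 12 h. As these are bulk samples, fewer cells with the mRNA and less mRNA per cell cannot be told apart.

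RB1 rose the most. Its level was 26.1 CPM at 0 h, 22.6 after 20 min, 31.1 after 40 min, 23.5 after 1 h, 26.7 after 2 h, 80.5 after 8 h and 86.1 after 12 h, with 50.4 CPM in cells without 4sU. The 5 libraries up to 2 h lay below the control and both late libraries above it. Fitted over the chase, the change was 1.91 ± 0.19 on the log2 scale over 12 h (SE, adjusted p = 1.74e-05, edgeR). The rise was in unlabelled reads, at 10.7 CPM at 0 h, 74.7 CPM at 8 h and 85.1 CPM at 12 h. Labelled reads of RB1 stood at 15.4 CPM at 0 h and 5.79 CPM at 8 h, so 37.2% of the early labelled CPM but 12.3% of the early labelled share was left at 8 h. With labelled reads scaled to the library rather than to RB1's total, its half-life was 4.10 h, above the interval given for the share.

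CCND3 rose less. It had 282 CPM at 0 h, 293 after 20 min, 296 after 40 min, 274 after 1 h, 287 after 2 h, 484 after 8 h and 531 after 12 h, with 674 CPM in cells without 4sU. All 7 chase libraries were below the control, and the late pair was nearer to it. The change was 0.86 ± 0.08 over 12 h (log2, adjusted p = 1.41e-05, edgeR). Unlabelled CCND3 reads were 197 CPM at 0 h and 523 CPM at 12 h.

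CDKN2C went the other way. Its level was 382 CPM at 0 h, 381 after 20 min, 358 after 40 min, 360 after 1 h, 364 after 2 h, 301 after 8 h and 197 after 12 h, with 109 CPM in cells without 4sU. All 7 chase libraries were above the control. The change was -0.98 ± 0.09 over 12 h (log2, adjusted p = 1.28e-05, edgeR). Over 0 to 2 h alone none of the 3 trends was called (adjusted p = 0.972 for RB1, 0.777 for CCND3 and 0.350 for CDKN2C), so the calls rest on the 8 h and 12 h libraries.

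CDK6 moved little between the early libraries and differed between the late ones. Its level was 457 CPM at 0 h, 408 after 20 min, 468 after 40 min, 398 after 1 h, 422 after 2 h, 360 after 8 h and 519 after 12 h, with 386 CPM in cells without 4sU. The lowest and the highest of the chase values were thus the 8 h and 12 h libraries. Its trend was -0.03 ± 0.15 (log2 over 12 h, adjusted p = 0.868, edgeR), and without the 12 h library it was -0.68 with adjusted p = 0.00256. CDK4 was at 220 CPM at 0 h, 201 after 20 min, 207 after 40 min, 195 after 1 h, 208 after 2 h, 213 after 8 h and 254 after 12 h, with 112 CPM in cells without 4sU. Each of the 7 chase values was above the control, with a trend of 0.10 ± 0.10 (adjusted p = 0.394).

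The scarcer inhibitors and E2F1 showed no called trend over the whole chase. CDKN1B had 13.6 CPM at 0 h, 18.0 after 20 min, 15.4 after 40 min, 11.2 after 1 h, 14.5 after 2 h, 19.7 after 8 h and 20.8 after 12 h, with 51.4 CPM in cells without 4sU. All chase values were below the control. Unlabelled reads of CDKN1B were 3.79 CPM at 0 h, 10.8 CPM at 2 h and 20.8 CPM at 12 h, and its labelled reads were 9.76 CPM at 0 h, 3.67 CPM at 2 h and none at 8 h. The unlabelled part thus grew as the labelled part was lost, while the total moved by less than the fit could call. CDKN2D had 15.4 CPM at 0 h, 20.2 after 20 min, 19.3 after 40 min, 18.9 after 1 h, 26.9 after 2 h, 19.8 after 8 h and 12.7 after 12 h, with 25.4 CPM in cells without 4sU. E2F1 ranged from 74.0 to 86.4 CPM over the chase, with 63.8 CPM in cells without 4sU. The E2F1 trend of -0.22 ± 0.10 (log2 over 12 h) had adjusted p = 0.0833 in edgeR. The CDKN1B trend of 0.42 ± 0.21 had adjusted p = 0.106, and 0.0369 without the 20 min library. The CDKN2D trend of -0.58 ± 0.27 had adjusted p = 0.0944, and 0.0335 without the 0 h library, but without the 12 h library it was -0.06 (adjusted p = 0.916). Over 0 to 2 h alone the CDKN2D trend had the other sign and was called (3.84 per 12 h, adjusted p = 0.0493, edgeR).

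**Figure D3:**
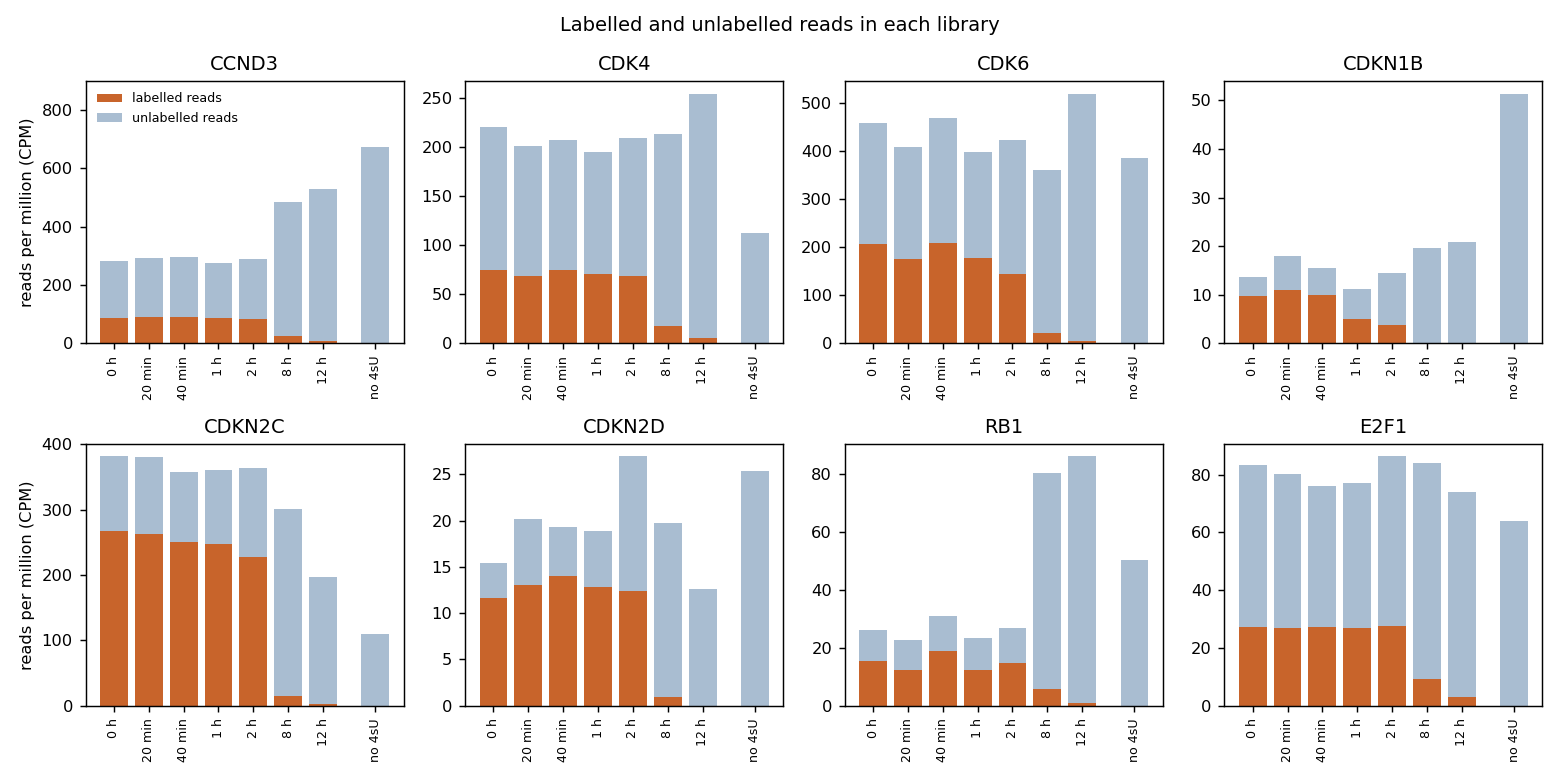
CPM of labelled (orange) and unlabelled (pale blue) reads in each chase library and, at the right of each panel, in cells without 4sU. Each bar is 1 library and each panel has its own vertical scale; RB1 and CCND3 gained unlabelled reads at 8 h and 12 h, and CDKN1B had no labelled read in either late library.

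Levels after the pulse were set against cells that never saw 4sU, with 1 library on each side and so no test. CDKN2C was 3.5 times as high at 0 h as without 4sU (95% exact interval for counting error 3.12 to 3.94) and CDK4 1.96 times (1.74 to 2.21). CDKN1B stood at 0.263 of the control level (0.205 to 0.337), CCND3 at 0.419 (0.394 to 0.444), RB1 at 0.517 (0.418 to 0.641) and CDKN2D at 0.606 (0.453 to 0.816). E2F1 stood at 1.3 times the control level (1.11 to 1.54) and CDK6 at 1.19 times (1.11 to 1.27). Past a fold of 2, CDKN2C lay above the control, and CDKN1B and CCND3 below it, against 19.7% of 9984 genes above and 17.9% below at that fold. With TMM scaling CDK4 passed it too, at 2.03 times the control. Monocytic markers moved with the same comparison: all 9 together summed to 1100 to 1240 CPM in the chase libraries and 2820 CPM without 4sU. Their part in the ratios was not tested.

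The 20 min, 40 min, 1 h and 2 h libraries gave ratios between 3.28 and 3.49 for CDKN2C, between 0.407 and 0.440 for CCND3 and between 0.218 and 0.351 for CDKN1B. CDKN2D instead moved from 0.744 at 1 h (0.563 to 0.991) to 1.06 at 2 h (0.815 to 1.40). After 12 h of chase the ratio to cells without 4sU was 1.81 for CDKN2C (1.60 to 2.04), 0.788 for CCND3 (0.747 to 0.831), 0.405 for CDKN1B (0.324 to 0.508), 0.498 for CDKN2D (0.367 to 0.681), 1.71 for RB1 (1.43 to 2.05), 2.26 for CDK4 (2.01 to 2.55) and 1.35 for CDK6 (1.26 to 1.44). E2F1 stood at 1.16 at 12 h (0.983 to 1.37). CDKN2C and CCND3 were thus nearer to the control than at 0 h, CDK4 was not, and RB1 had passed from below the control to above it. Past a fold of 2 at 12 h, CDK4 lay above the control, and CDKN1B and, narrowly, CDKN2D below it. At 12 h 20.6% of 10067 genes lay at least 2-fold above the control and 10.6% below, and the median gene stood at 0.17 on the log2 scale. The control library was the shallowest, and the labels match it to no time of the chase, so time in culture and exposure to 4sU cannot be told apart.

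**Figure D4:**
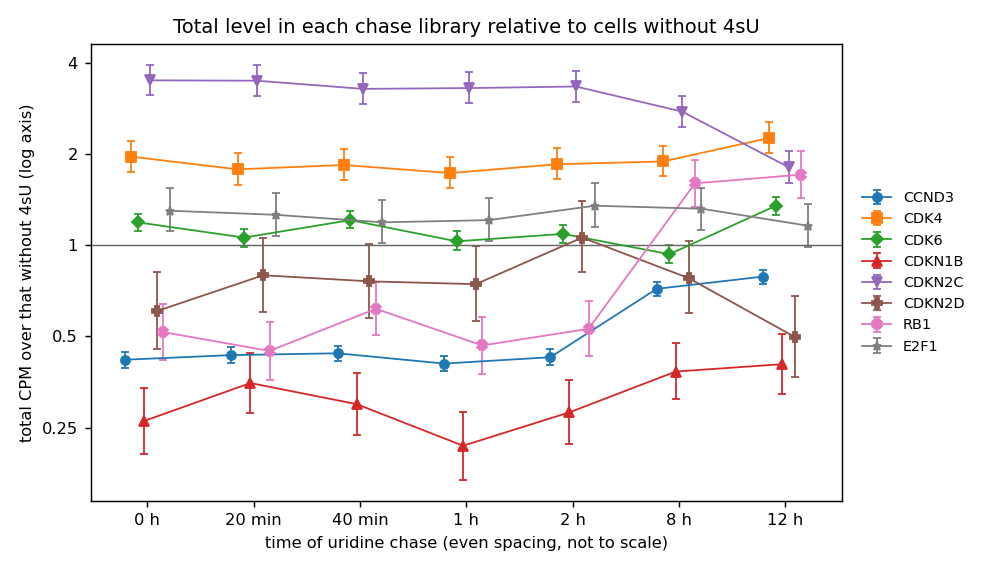
Total CPM in each chase library over that of the library without 4sU (vertical axis, log axis) for the 8 genes with enough reads, with 95% exact intervals for counting error. The line at 1 is equality; CDKN2C fell towards it at 12 h, CCND3 rose towards it and RB1 crossed it between 2 h and 8 h.

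Other regulators of the G1 to S transition, a list of 39 genes, declined in label in all 35 that were tested, close to the 95.3% of all genes, with a median half-life of 2.46 h and 22 below the 2.72 h of all genes. The shortest half-lives were those of AMBRA1, a ubiquitin ligase receptor for D-type cyclins, with 1.17 ± 0.23 h, FBXW7, which marks cyclin E for degradation, with 1.66 ± 0.12 h, and CDKN1A, the p21 inhibitor, with 1.71 ± 0.24 h. At the slow end were SKP1, a core subunit of SCF ubiquitin ligases, with 17.9 ± 3.0 h, the phosphatase CDKN3 with 7.27 ± 1.19 h and CKS1B, the cofactor by which SKP2 recognises CDKN1B, with 4.39 ± 0.67 h. Total level rose in 13 and fell in 9 of 35 genes, against 27.4% rising and 23.9% falling over all genes. CDKN1A resembled CDKN1B in its short half-life but not in level: it stood at 5.03 times the control at 0 h, and its trend over the chase was 0.66 ± 0.12 (log2, adjusted p = 0.000923, edgeR).

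The genes not tested in that list were E2F5 with 102 reads, LIN37 with 93, and CDKN2A and CDKN2B, the other INK4 genes. CDKN2A and CDKN2B were absent from the 15380 genes kept. A gene is absent without reads, but also with unmatched transcripts or with counts equal to another gene's, and these cases were not told apart. Among the INK4 genes, only CDKN2C and CDKN2D could thus be described. E2F target genes of DNA replication, 21 in all, had a median half-life of 3.72 h with 6 below the median of all genes. Their totals fell in 11 and rose in 3, against 23.9% falling and 27.4% rising over all genes, with a median trend of -0.23 on the log2 scale over 12 h, against 0.02 for all genes tested.

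Genes with the most similar course of labelled share were sought among 6071 genes with a mean of at least 200 reads, as the smallest root mean square difference over the 7 chase libraries. CDK6 was nearest to RPA2 (1.19 percentage points), a subunit of the single-strand DNA binding complex of replication, to UPF1 (1.25), the helicase of nonsense-mediated decay, and to POM121 (1.28), a nuclear pore protein. CDKN1B was nearest to ZNF503 (2.61), CDKN2D to BCOR (2.38), a transcriptional corepressor, and RB1 to RHNO1 (1.97). CDKN2C was nearest to TROAP (0.763), CCND3 to RPL7L1 (0.864), CDK4 to EIF3D (0.659), a translation initiation factor subunit, and E2F1 to ATXN10 (0.872). Counting error is larger for CDKN1B and CDKN2D, which averaged 149.9 and 176 reads per chase library, and its part in their larger distances was not tested.

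The segments measured are placed by their lowest coordinate on the hg19 build, which for genes on the minus strand is the 3′ end of the segment. On the minus strand it is 92234235 of chromosome 7 for CDK6, 58141510 of chromosome 12 for CDK4, 41902671 of chromosome 6 for CCND3, 10677138 of chromosome 19 for CDKN2D and 32263489 of chromosome 20 for E2F1. On the plus strand it is 4409176 and 12873970 of chromosome 12 for CCND2 and CDKN1B, 51439943 of chromosome 1 for CDKN2C and 49054208 of chromosome 13 for RB1. Each segment is from the 3′ UTR of a protein-coding transcript.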

How the data were processed

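SLAM-seq libraries of 3′ mRNA ends (QuantSeq 3′ FWD kit) were analysed from 8 THP-1 samples, 1 per condition. The authors deposited raw counts of all reads and of converted reads per 3′ UTR segment. Per the submitters' processing notes, Trim Galore 0.6.5 and bcl2fastq 2.17.1.14 were used, with hg19 as the human build. The sources used here do not give the aligner, the counter, its use of strand or how many conversions made a read count as labelled. Drosophila spike-in reads were not used here.

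GENCODE 29 (GRCh38) named 84.9% of 56570 transcripts, 5.65% of summed counts lay in unmatched segments, and 85 genes with counts equal to another gene's were left out. Label decline was fitted in edgeR 4.0.16 (R 4.3.3) for genes with 20 or more labelled reads and a mean total of 50 or more, and total level for genes with a mean of at least 20. DESeq2 1.42.0 served as an alternative. Half-lives are binomial fits over a background from the library without 4sU, with standard errors widened by scatter and 95% intervals on 5 degrees of freedom. A half-life was resolved with a called decline, 10 fitted labelled reads at 0 h, a log-rate standard error up to 0.5 and a value of 0.25 to 24 h. New unlabelled RNA dilutes the share and counts as decay. Exact (Clopper-Pearson) intervals and limits from 3 counts cover counting error only, since the reads carry no molecular identifiers. Fits were tested on simulated data. Those simulated for the half-life had an exactly exponential loss and no scatter beyond binomial, so they do not bear on the intervals given here. Genes named from the list of regulators are the 3 shortest and 3 longest called half-lives with a log-rate standard error up to 0.25, and those not tested. The 9 genes and the lists were chosen with earlier results of these data known. Lymphoid markers other than CD3E are not reported here.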

Additional observations from a re-analysis of the deposited data

How the results depend on the processing

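No paired analysis was possible because each condition had 1 library. Half-lives of the 8 members stayed inside their 95% intervals when any 1 chase library was left out (CDKN2C 2.46 to 3.97 h). All 8 were shorter without the 0 h library, and with the 1 to 12 h libraries alone (0.966 to 3.86 h). All 8 were longer without the 12 h library, with the fitted start fixed at the 0 h share, and with the 0 to 2 h libraries alone. Half-lives left their intervals in 7 of 104 values: 6 with the 0 to 2 h libraries alone (21.3 h for CCND3, 22.5 h for RB1, 45.5 h for CDK4, 48.0 h for E2F1, 12.7 h for CDKN2C and 5.67 h for CDK6) and RB1 on library-scaled labelled reads (4.10 h). With those 0 to 2 h libraries, which are fewer samples, 2998 genes declined in label, 4 members among them, and 112 genes fell and 439 rose in total level. No member fell there at an adjusted or unadjusted p under 0.05 in edgeR, and 1 (CDKN2D) rose. Members that fell in total level numbered 1, or 2 by DESeq2 (CDKN2D added), and 1 to 2 leaving out each library. Members that rose numbered 2, or 4 without TMM factors (CDK4 with adjusted p = 0.0262 and CDKN1B with 0.0389 added, edgeR). Leaving out each library they numbered 2 to 3, with CDKN1B added without the 20 min library. Trends that changed sign were those of CDK6 (0.11 without TMM factors, and -0.68 to 0.15 leaving out each library, above 0 without the 0 h, 40 min or 8 h library), of CDK4 (-0.50 over 0 to 2 h and -0.18 to 0.19 leaving out each library, below 0 without the 12 h library), and over 0 to 2 h of CCND3 (-0.27), CDKN1B (-1.09), CDKN2D (3.84) and E2F1 (0.21). The cause was not tested. Depth limits CCND2, and the late shares of CDKN1B and CDKN2D.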
